A study of Arabidopsis thaliana with 18 samples.

Results

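The 10 genes described here encode FCS-like zinc finger (FLZ) proteins of Arabidopsis, also known as DUF581 proteins, that bind the kinase SnRK1. They were taken by their gene identifiers from the 32833 genes of the deposited expression table, by a rule that uses no measured value. They are FLZ2 (AT4G17670), FLZ3 (AT2G44670), FLZ5 (AT1G22160), FLZ6 (AT1G78020), FLZ7 (AT4G39795), FLZ8 (AT3G22550), FLZ10 (AT5G11460), FLZ13 (AT1G74940), IRM1 (AT5G65040) and AT5G47060, for which the table gives no other name. All 10 passed the filter on low values in every comparison.

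SnRK1 is the plant relative of the energy-sensing kinases SNF1 of yeast and AMPK of mammals, a complex of a catalytic α subunit with β and γ subunits that favors energy-saving metabolism when carbon runs short. FLZ proteins carry a short zinc finger held by cysteines, through which they contact the α subunits, and they are thought to act as adaptors between the kinase and other proteins. FLZ6 and FLZ10 are known in Arabidopsis as repressors of SnRK1 signaling, FLZ8 as a scaffold that brings SnRK1 together with RAPTOR1B of the TOR complex, and IRM1 was named for increased resistance to the aphid Myzus persicae.

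RNA was sequenced from whole rosettes of 20-d-old plants grown under a 12-h photoperiod, with 3 libraries for each of 6 groups, every library a pool of rosettes. The groups were SnRK1α1-OE, in which the constitutive 35S promoter drives SnRK1α1, sesquiα2, which is homozygous for the snrk1α1-3 allele and heterozygous for snrk1α2-2, and the wild type Col-0, each harvested at the end of the night (EN, ZT 24 h) and at the end of the day (ED, ZT 12 h). Both altered lines are in the Col-0 background. Per the labels, sesquiα2 seedlings were first selected on BASTA herbicide plates without sugar and then moved to soil, whereas SnRK1α1-OE and Col-0 were sown on soil, so genotype and early growth cannot be told apart in comparisons with sesquiα2. The overexpression line is a single line. In bulk rosette RNA, fewer cells that express a gene and less RNA per cell cannot be told apart either.

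Each library held between 35050877 and 40416618 reads over all genes. The deposited values are reads scaled to a nearly common total, and they are called normalized expression values below. SnRK1α1 (AT3G01090) had mean values of 29213 in SnRK1α1-OE and 1945 in Col-0 at EN, and of 30825 in SnRK1α1-OE and 1711 in Col-0 at ED, as its label requires; its transcript was not called in sesquiα2 against Col-0 (1833 at EN and 1732 at ED in sesquiα2), and reads summed over the gene do not check an insertion. SnRK1α2 (KIN11, AT3G29160) averaged 1224 in sesquiα2 and 1351 in Col-0 at EN, while at ED it averaged 1006 in sesquiα2 and 1471 in Col-0. Leaf markers were abundant in every library, the root hair markers EXPA7 and EXPA18 had no read in any, and the dawn gene CCA1 lay between 21839 and 30986 in the EN libraries and between 44.2 and 113 in the ED libraries.

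Replicate 1 stood apart from replicates 2 and 3 at EN in SnRK1α1-OE and in Col-0. For all 10 FLZ genes it was the highest of the 3 libraries in both of these groups, with a median ratio to the mean of the other libraries of 1.4 in SnRK1α1-OE and 1.48 in Col-0. Over 20338 genes it was the highest for 51% in SnRK1α1-OE and 50.9% in Col-0. The deposited values carry a scaling factor of each library, the TMM factor of edgeR, as a multiplier. At EN it was fitted at 0.996 for replicate 1 against 0.927 and 0.909 in SnRK1α1-OE. In Col-0 it was 0.982 against 0.898 and 0.904. The ratios and shares given here include this difference in scaling. CCA1 was lower in these libraries, at 21839 in SnRK1α1-OE and 22249 in Col-0, than in the other EN libraries of all lines, where it lay between 27617 and 30986. The part of this difference in the results was not tested, and the called values that rest on these libraries, with those that change their side of the adjusted p limit, are also given without them. In Col-0 at ED, replicate 1 was the highest for 42.9% of genes and for 5 of the 10 FLZ genes. It had 418 for FLZ2 there, against 885 and 1067 in replicates 2 and 3.

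**Figure D1:**
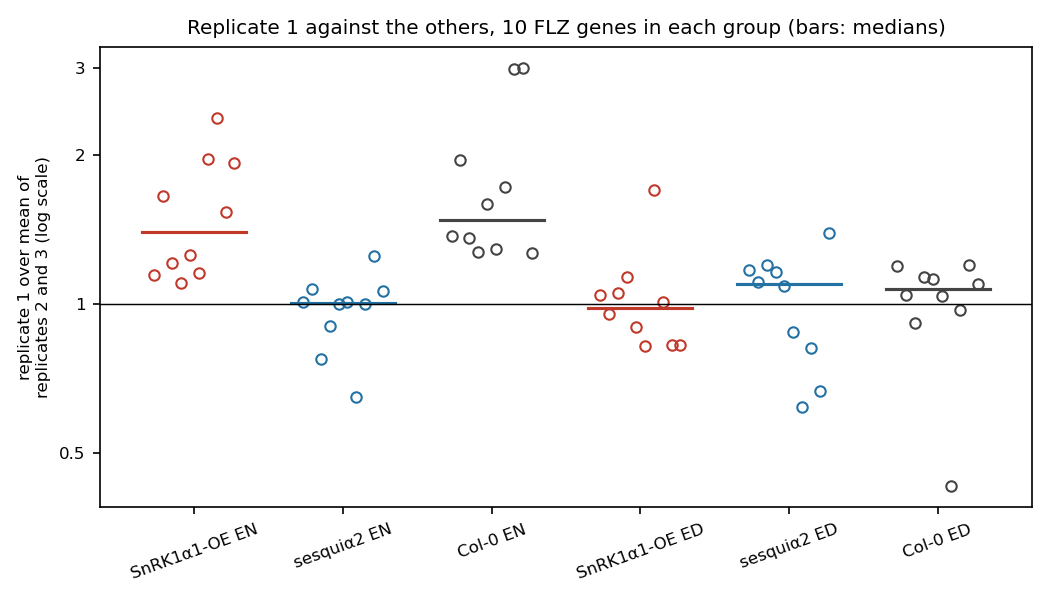
Ratio of the normalized expression value in replicate 1 to the mean of replicates 2 and 3 (log scale) for each of the 10 FLZ genes (open circles) in each of the 6 groups, with the median over genes as a bar. All circles lie above 1 in SnRK1α1-OE EN (median 1.4) and Col-0 EN (median 1.48), whereas they spread around 1 in sesquiα2 EN (median 1.01) and in the ED groups.

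The members share the finger that names the family, shown here as coding sequence because it is the part of these genes known to contact SnRK1. The coding sequences were read from RefSeq on TAIR10.1, whose summed exon lengths equal those of the deposited table for all 10 members. A search for the spacing with 2 residues between the cysteines of both pairs found none of the 10; with 3 residues in the second pair, a spacing chosen after that result, it found all 10 and 281 of 27443 protein-coding genes. In the following stretches every cysteine codon is in capitals:
FLZ6: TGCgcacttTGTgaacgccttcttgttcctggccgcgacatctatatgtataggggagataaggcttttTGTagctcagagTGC
FLZ5: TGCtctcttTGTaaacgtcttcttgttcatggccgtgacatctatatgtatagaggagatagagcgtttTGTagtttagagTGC
FLZ8: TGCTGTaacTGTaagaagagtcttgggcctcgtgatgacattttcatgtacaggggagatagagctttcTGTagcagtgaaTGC
FLZ2: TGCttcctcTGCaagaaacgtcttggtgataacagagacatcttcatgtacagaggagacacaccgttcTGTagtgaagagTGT
AT5G47060: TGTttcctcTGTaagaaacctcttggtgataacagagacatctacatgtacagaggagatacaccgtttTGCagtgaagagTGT
IRM1: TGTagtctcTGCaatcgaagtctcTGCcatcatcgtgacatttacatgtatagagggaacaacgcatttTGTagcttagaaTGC
FLZ13: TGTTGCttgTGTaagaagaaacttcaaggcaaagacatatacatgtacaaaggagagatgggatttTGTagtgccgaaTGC
The stretches of FLZ2 and AT5G47060 are identical at 91.7% of their bases and those of FLZ6 and FLZ5 at 85.7%, the closest of the 36 pairs of equal length that were compared, and the most distant pair, FLZ10 and IRM1, shares 50% of its bases. FLZ13 has 18 codons between the cysteine pairs and the other members have 19. FLZ8 and FLZ13 carry an additional cysteine codon next to the first one, and IRM1 carries one inside the loop.

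The genes lie on all 5 chromosomes and not in a cluster. FLZ8 spans chr3:7991403-7993588 on the minus strand with 3 exons, FLZ6 spans chr1:29338530-29339760 on the plus strand with 2 exons, and FLZ5 spans chr1:7823066-7823971 on the plus strand with 2 exons (TAIR10.1). AT5G47060 spans chr5:19116719-19118744 on the plus strand, with 5 distinct exon intervals pooled over its 2 annotated transcripts. AT5G47060 overlaps AT5G47070 and FLZ10 overlaps AT5G11450, both on the other strand; since the use of strand in counting is not stated, reads of the overlapping parts could belong to either gene.

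The members differed widely in level. Per kb of exon and averaged over the 6 groups, FLZ6 was highest with a normalized value of 9272, followed by FLZ3 with 5339. The other members were far lower, between 472 for FLZ2 and 56.1 for FLZ7. In whole reads, FLZ7 had between 1 and 108 reads per library and IRM1 between 38 and 494, so these genes carry the largest counting error of the 10, while FLZ6 never had fewer than 5613.

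The span over the groups also differed. Between the group with the highest and the group with the lowest mean, normalized values differed 7.7-fold for FLZ8, 7.26-fold for FLZ7, 5.15-fold for IRM1 and 4.06-fold for AT5G47060, but only 1.28-fold for FLZ10. FLZ10, one of the repressors of SnRK1 signaling, lay between 215 and 371 in all 18 libraries, and each group in its order overlapped the next.

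**Figure D2:**
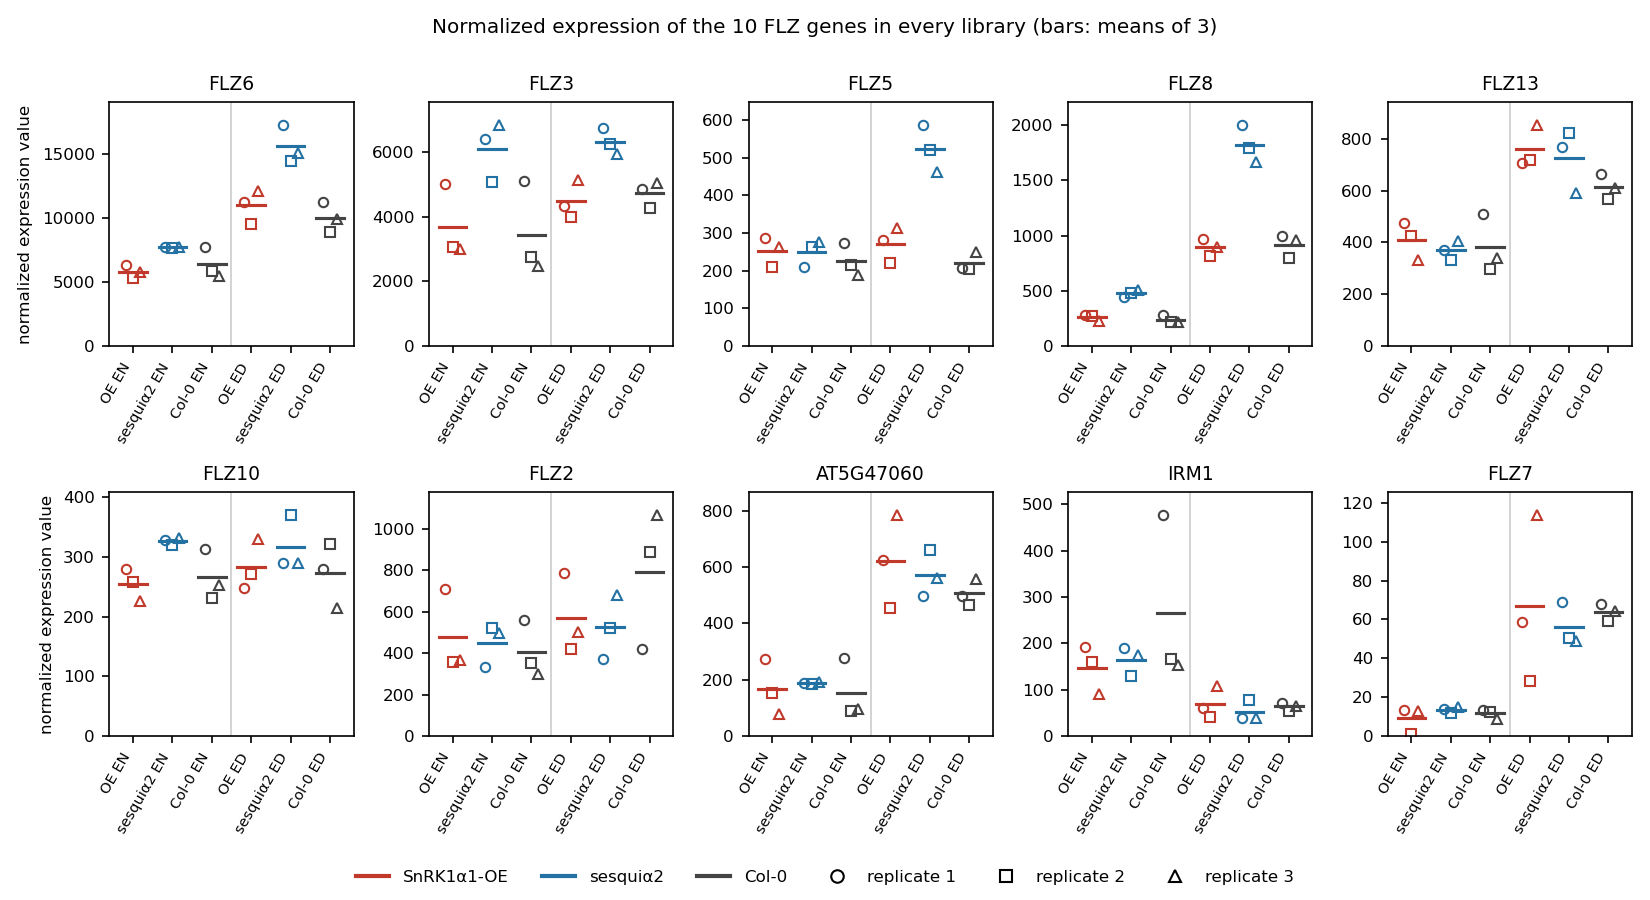
Normalized expression value (reads scaled to a nearly common total, linear axis from 0) of each FLZ gene in the 18 libraries, with SnRK1α1-OE in red, sesquiα2 in blue and Col-0 in grey, EN on the left and ED on the right of each panel; symbols mark replicates and bars the mean of 3. FLZ8, AT5G47060 and FLZ7 are lower at EN than at ED in every line, and IRM1 has higher means at EN. The sesquiα2 ED libraries stand above the other groups for FLZ8, FLZ5 and FLZ6.

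The first question was which FLZ transcripts differed between the end of the night and the end of the day. FLZ8, AT5G47060 and FLZ7 were lower at EN in all 3 lines and IRM1 was higher in all 3, and these 4 genes were called in every line. FLZ6 and FLZ5 were called lower at EN in sesquiα2. A gene was called when its adjusted p from limma was under 0.05 and its log2 fold change, computed on values with a pseudocount of 1, was at least 1 in either direction; the log2 change below is this quantity.

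FLZ8, the RAPTOR1B scaffold, had 276, 272 and 229 at EN and 971, 815 and 895 at ED in SnRK1α1-OE. In sesquiα2 it had 445, 477 and 509.8 at EN and 2005, 1797 and 1662 at ED. In Col-0 it had 276, 214 and 219 at EN and 997, 798 and 956 at ED. The EN and ED libraries did not overlap in any line, and every EN library of any line lay below every ED library. The log2 change was −1.78 (SE 0.14, limma adjusted p = 8.37e-06) in SnRK1α1-OE, −1.93 (SE 0.1, limma adjusted p = 6.17e-07) in sesquiα2 and −1.95 (SE 0.15, limma adjusted p = 7.13e-05) in Col-0.

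AT5G47060, the gene with the finger closest to that of FLZ2, had 273, 152 and 77.2 at EN and 626, 455 and 787 at ED in SnRK1α1-OE. In sesquiα2 it had 187, 184 and 191 at EN and 498, 661 and 561 at ED. In Col-0 it had 276, 90.2 and 94.3 at EN and 498, 466 and 559 at ED. The EN libraries were the lower ones in each line without overlap, and their spread was narrow in sesquiα2 and wide in the other lines, where replicate 1 was highest. The log2 change was −2.04 in SnRK1α1-OE (limma adjusted p = 0.00258), −1.60 in sesquiα2 (adjusted p = 1.54e-05) and −1.92 in Col-0 (adjusted p = 0.00702). Without replicate 1 of the EN group it was −2.48 in SnRK1α1-OE and −2.44 in Col-0.

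FLZ7 was the least abundant member. It had 13.6, 0.982 and 13.1 at EN and 58.8, 28.1 and 114 at ED in SnRK1α1-OE, where replicate 2 at EN rests on 1 read. It had 14.1, 11.7 and 14.7 at EN and 68.9, 50.2 and 48.8 at ED in sesquiα2, and 13.5, 12.4 and 8.88 at EN and 68, 59.4 and 64.2 at ED in Col-0. All EN libraries lay below all ED libraries of their line. The log2 change was −2.98 in SnRK1α1-OE (SE 0.79, limma adjusted p = 0.0125), −1.96 in sesquiα2 (SE 0.32, adjusted p = 7.45e-04) and −2.38 in Col-0 (SE 0.3, adjusted p = 6.15e-04). In SnRK1α1-OE it was not called without ED replicate 3 (−2.49, limma adjusted p = 0.0579).

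IRM1 ran the other way. It had 189, 129 and 174 at EN and 38.7, 77.9 and 38 at ED in sesquiα2, and 477, 166 and 152 at EN and 71.9, 54.5 and 65.2 at ED in Col-0, without overlap in either line. In SnRK1α1-OE it had 192, 159 and 91.2 at EN and 60.8, 40.6 and 107 at ED, and there the lowest EN library lay under the highest ED library. The log2 change was 1.71 in sesquiα2 (limma adjusted p = 0.00151) and 1.84 in Col-0 (adjusted p = 0.0106). In SnRK1α1-OE it was 1.12 (limma adjusted p = 0.0363) and was called in 2 of the 6 fits with a library removed, not in those without ED replicate 1 or 2 or EN replicate 1 or 2 (0.80 to 1.08, with 0.90 without EN replicate 1). Without Col-0 EN replicate 1, in which IRM1 had 477, the Col-0 value was 1.31 (limma adjusted p = 0.00348).

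FLZ6 and FLZ13 were lower at EN without overlap in all 3 lines. FLZ6, the other repressor of SnRK1 signaling, had 6354, 5324 and 5757 at EN and 11278, 9560.1 and 12091 at ED in SnRK1α1-OE, or a log2 change of −0.91 (limma adjusted p = 3.50e-04). In sesquiα2 it had 7743, 7635 and 7714 at EN and 17293, 14456 and 15089 at ED, and with −1.02 (adjusted p = 1.47e-05) it passed both limits there. In Col-0 it had 7773, 5832 and 5497 at EN and 11219, 8871 and 9914 at ED, or −0.66 (adjusted p = 0.0122). The call in sesquiα2 stood just past the fold limit and was lost with other scalings (−0.97 and −0.88), in the test on recovered reads (−0.98) and without ED replicate 1 (−0.94). FLZ13 had log2 fold changes of −0.90, −0.96 and −0.71 in SnRK1α1-OE, sesquiα2 and Col-0, with limma adjusted p of 0.0016, 5.21e-04 and 0.0245, under the fold limit in each.

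FLZ3, FLZ2 and FLZ10 were not called between EN and ED in any line. FLZ3 lay between 2469 and 6855 and FLZ2 between 299 and 1067 over the 18 libraries, and their EN and ED libraries overlapped in each line. FLZ3 overlapped in Col-0 and SnRK1α1-OE through EN replicate 1. Its log2 change was −0.32 in SnRK1α1-OE (limma adjusted p = 0.22) and −0.53 in Col-0 (adjusted p = 0.136), and without that library −0.56 in SnRK1α1-OE (limma adjusted p = 0.00642) and −0.86 in Col-0 (adjusted p = 0.00117), past the adjusted p limit but not the fold limit. FLZ2 had the widest spread of these in Col-0, where its log2 fold change was −0.92 with a 95% interval from −1.79 to −0.04 (limma adjusted p = 0.0849), and it was called there without Col-0 ED replicate 1 (−1.32, adjusted p = 0.00582).

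In total, 4 of the 10 members were called in SnRK1α1-OE, 6 in sesquiα2 and 4 in Col-0, of which 1 was higher at EN in each line. Over all genes tested, 7.88% were called higher and 9.46% lower at EN in SnRK1α1-OE, 8.39% higher and 8.59% lower in sesquiα2, and 7.63% higher and 13.2% lower in Col-0. Without overlap, 5 members were lower in SnRK1α1-OE, 6 in sesquiα2 and 5 in Col-0, against 28.5%, 31.9% and 34.5% of all genes. The median log2 fold change of the members was −0.61 in SnRK1α1-OE, −0.99 in sesquiα2 and −0.69 in Col-0, beside −0.03, −0.03 and −0.16 over all genes. Without replicate 1 of the EN group, FLZ8 had −1.83 in SnRK1α1-OE and −2.07 in Col-0, and FLZ7 had −3.47 in SnRK1α1-OE and −2.49 in Col-0, all called. FLZ6 then had −0.98 in SnRK1α1-OE and −0.81 in Col-0, and FLZ13 −1.01 in SnRK1α1-OE, which was called (limma adjusted p = 7.23e-04), and −0.94 in Col-0. Other scalings moved the all-gene median in Col-0 by 0.13 to 0.17 and changed the direction of no called member.

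**Figure D3:**
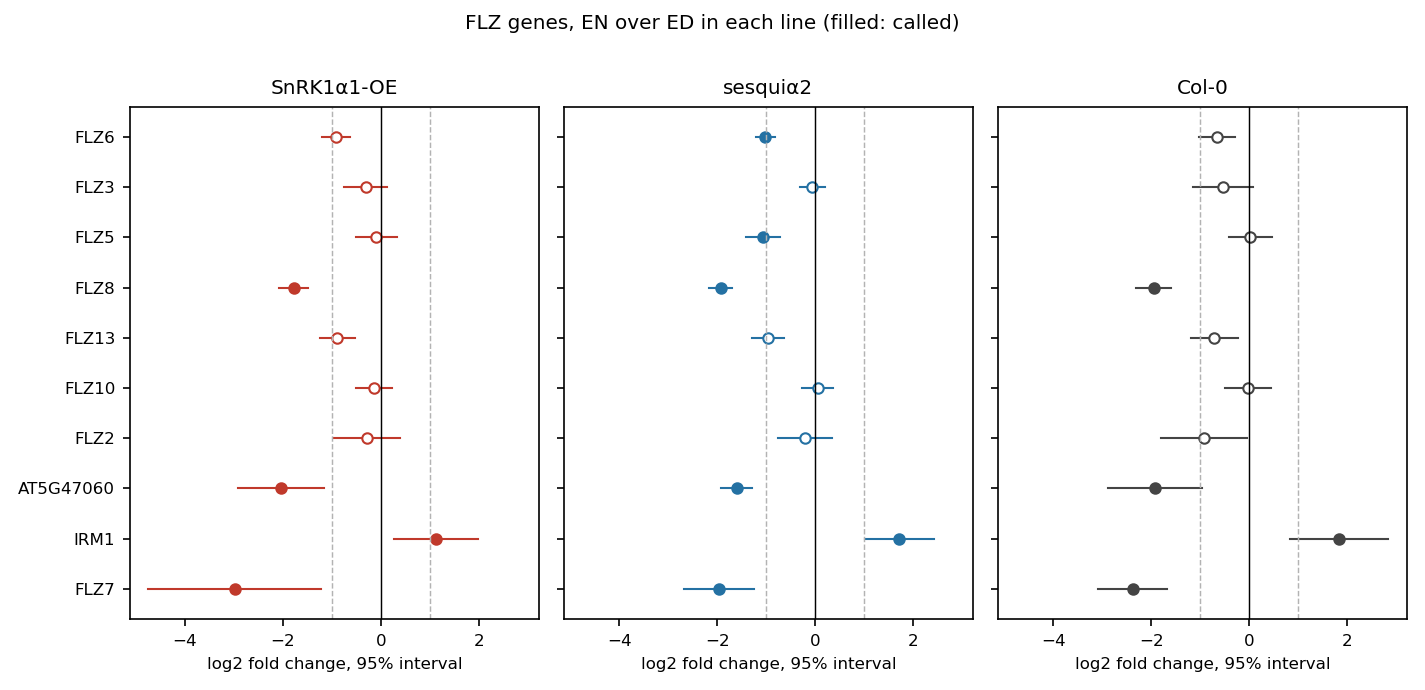
Log2 fold change of EN over ED (x axis, with its 95% interval from limma) for each FLZ gene in SnRK1α1-OE, sesquiα2 and Col-0; filled circles were called and dashed lines mark a log2 fold change of −1 and 1. FLZ8, AT5G47060 and FLZ7 lie at −1.60 or below and IRM1 at 1.12 or above in every panel, and FLZ5 lies away from 0 in sesquiα2 (−1.07) but not in SnRK1α1-OE (−0.10) or Col-0 (0.02).

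The second question was whether FLZ transcripts differed between the partial loss-of-function mutant and the wild type. FLZ8 had about double the wild-type value in sesquiα2 at both times of day and FLZ5 more than double at ED. At ED, 1 of the 10 members was called, FLZ5, and it was higher (0.271% of all genes called). At EN, 1 was called, FLZ8, also higher (1.21% of all genes called). Neither call held in every fit with a library left out, and that of FLZ8 was also lost with other scalings.

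At ED, FLZ5 had 588, 521 and 461 in sesquiα2, against 208, 204 and 251 in Col-0. The lowest sesquiα2 library was well above the highest Col-0 library. The log2 change was 1.24 (SE 0.15, limma adjusted p = 0.0218), a 2.36-fold higher value. At EN the lines overlapped, with 209, 263 and 277 in sesquiα2 and 274, 214 and 189.9 in Col-0, and the log2 fold change was 0.15 with a 95% interval from −0.28 to 0.58. Among the 6 fits with a library left out at ED, FLZ5 was called in 1, without Col-0 ED replicate 1; in the others the log2 fold change stayed between 1.15 and 1.33 and the adjusted p from limma lay between 0.0705 and 0.142.

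The order of the 6 groups for FLZ5 had sesquiα2 ED alone at the top, with a mean of 523 ± 63.5 (SD, n = 3), and the other 5 groups between 221 and 271, each overlapping its neighbor. FLZ5 was lower at EN than at ED in sesquiα2, with a log2 fold change of −1.07 (SE 0.15, limma adjusted p = 3.64e-04), which was not called without ED replicate 1 (−0.98) or without EN replicate 1 (−0.94). In SnRK1α1-OE it had 286, 209 and 264 at EN and 281, 219.8 and 313 at ED.

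The differences between EN and ED in the effect of a line were judged by an adjusted p under 0.05, with no fold limit. For the sesquiα2 effect no member passed in limma (0.815% of all genes passed), with 1 at an unadjusted p under 0.05 (17.2% of all genes). That gene was FLZ5, whose effect was smaller at EN by 1.09 on the log2 scale (difference −1.09, SE 0.24, limma adjusted p = 0.0627). It passed the limit of 0.05 in a fit of all 18 libraries (adjusted p = 0.0392), with median-ratio scaling (0.0346), with quantile normalization (0.0232), without Col-0 ED replicate 1 (0.0337) and in the quasi-likelihood test of edgeR on recovered reads (0.0352), and its adjusted p lay between 0.0232 and 0.175 over 21 alternatives. For FLZ8 the difference was 0.03, with a 95% interval from −0.37 to 0.42.

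FLZ8 had 445, 477 and 509.8 in sesquiα2 at EN and 276, 214 and 219 in Col-0 at EN, or a log2 change of 1.02 (SE 0.15, limma adjusted p = 0.00861). At ED it had 2005, 1797 and 1662 in sesquiα2 and 997, 798 and 956 in Col-0, or a log2 change of 0.99 (SE 0.12, adjusted p = 0.0218) that stayed just under the fold limit. No library of the lines overlapped at either time. At EN the value lay between 0.87 and 1.13 over the alternatives, and FLZ8 was not called with either other scaling, in the test on recovered reads, or without Col-0 EN replicate 2 or 3 or sesquiα2 EN replicate 3, without which the adjusted p was 0.0746. At ED, leaving out a library gave 0.90 to 1.06 with an adjusted p of 0.0116 to 0.143.

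FLZ6 and FLZ3 were also higher in every sesquiα2 library than in every Col-0 library at ED, without passing the adjusted p. FLZ6 averaged 15613 ± 1489 in sesquiα2 and 10001 ± 1176 in Col-0 (SD, n = 3 each), or a log2 change of 0.64 (limma adjusted p = 0.0776). FLZ3 averaged 6308 ± 405 in sesquiα2 and 4732 ± 401 in Col-0 (SD, n = 3 each), or a log2 change of 0.42 (adjusted p = 0.149). With FLZ5 and FLZ8 these were 4 of 10 members higher without overlap, against 11.2% of all genes, and none was lower without overlap (9.21% of all genes).

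At EN, FLZ3 had 6395, 5089.5 and 6855 in sesquiα2 and 5105, 2754 and 2469 in Col-0, and only Col-0 replicate 1 reached into the sesquiα2 range. Its log2 fold change was 0.89 (limma adjusted p = 0.0984). Without that library limma called FLZ3 (1.22, adjusted p = 9.04e-05), FLZ8 (1.13, adjusted p = 2.19e-04) and AT5G47060 (1.01, adjusted p = 0.00348) higher. FLZ6 then passed the adjusted p limit of limma alone (0.44, adjusted p = 0.00317, against 0.29 and 0.28 with that library). The 1.21% of all genes called at EN belongs to the fit with that library. The share without it is not given here, so these calls are not set against all genes. FLZ10 lay at 329, 319 and 332 in sesquiα2 and at 313, 231 and 253 in Col-0, without overlap but with a log2 fold change of 0.31 (adjusted p = 0.323), and with FLZ8 it made 2 of 10 members higher without overlap, against 18.8% of all genes. The members' median log2 fold change was 0.25 at EN and 0.23 at ED, beside 0.10 and 6.58e-04 over all genes.

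The upstream sequences of the 4 members that were higher without overlap in sesquiα2 at ED are shown; of these genes FLZ5 and FLZ8 passed the adjusted p there and FLZ6 and FLZ3 did not. Each is the 250 bases before the annotated transcript start from TAIR10.1, read on the gene's strand, with ACGTG, the core of the abscisic acid response element, in capitals:
FLZ8 (chr3:7993589-7993838, - strand): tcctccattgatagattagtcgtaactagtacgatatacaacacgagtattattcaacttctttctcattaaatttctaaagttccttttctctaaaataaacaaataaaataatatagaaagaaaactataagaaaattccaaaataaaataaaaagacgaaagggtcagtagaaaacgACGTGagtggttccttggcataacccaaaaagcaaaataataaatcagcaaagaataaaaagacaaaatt
FLZ5 (chr1:7822816-7823065, + strand): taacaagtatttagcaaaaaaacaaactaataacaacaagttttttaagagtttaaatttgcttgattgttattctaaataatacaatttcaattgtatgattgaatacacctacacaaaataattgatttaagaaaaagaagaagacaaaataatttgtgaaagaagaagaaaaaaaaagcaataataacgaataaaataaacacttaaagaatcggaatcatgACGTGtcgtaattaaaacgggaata
FLZ3 (chr2:18424861-18425110, + strand): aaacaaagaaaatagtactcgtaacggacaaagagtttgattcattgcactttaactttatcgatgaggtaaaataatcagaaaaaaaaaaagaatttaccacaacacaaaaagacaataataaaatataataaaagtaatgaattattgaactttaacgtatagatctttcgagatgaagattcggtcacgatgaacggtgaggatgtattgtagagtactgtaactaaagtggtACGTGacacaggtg
FLZ6 (chr1:29338280-29338529, + strand): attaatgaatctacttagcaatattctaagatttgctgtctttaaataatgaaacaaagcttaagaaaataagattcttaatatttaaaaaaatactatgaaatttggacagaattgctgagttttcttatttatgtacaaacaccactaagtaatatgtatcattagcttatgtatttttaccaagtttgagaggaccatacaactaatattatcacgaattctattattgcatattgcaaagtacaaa
ACGTG, searched on both strands and chosen after these sequences had been seen, begins 70 bases before the start in FLZ8, 25 in FLZ5 and 14 in FLZ3, and is in none of the other 7 windows. It is in 22.9% of the same windows of 27443 protein-coding genes. The G-box CACGTG, which contains it, was in no member (6.49% of all windows), nor were the sugar-related motifs TATCCA (13.6%) and TTATCC (12.5%), which can overlap each other. The evening element AAAATATCT was in the window of FLZ2 alone (2.36% of all windows) and the CCA1-binding site AAAAATCT in that of FLZ10 alone (6.69%). A match of these letters is not a shown binding site.

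The third question was whether raising SnRK1α1 altered FLZ transcripts. No member was called in SnRK1α1-OE against Col-0 by limma at either time, and the quasi-likelihood test of edgeR on recovered reads called none either, nor was any called with a library left out. Of all genes, 0.0670% were called at EN and 0.179% at ED. At an unadjusted p under 0.05 there was no member at EN and 1 at ED, against 3.94% and 24.9% of all genes. FLZ8 had a log2 fold change of 0.13 at EN (95% interval from −0.24 to 0.51) and −0.03 at ED (−0.32 to 0.26), and FLZ6 had −0.12 at EN (−0.46 to 0.23) and 0.13 at ED (−0.16 to 0.43).

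The exception at ED was FLZ13, with 706, 719 and 854 in SnRK1α1-OE and 662, 567 and 609 in Col-0. These groups did not overlap, which held for 1 of 10 members in the higher direction, against 2155 of 19576 genes (31.4% of all genes in either direction), but the log2 fold change of 0.31 had an adjusted p of 0.173 from limma. For the low or variable members the intervals were wide. They ran from −2.57 to 1.08 for FLZ7 and from −1.78 to 0.38 for IRM1 at EN, so that these data do not bound a difference there closely. For the difference between EN and ED in the SnRK1α1-OE effect, no member passed the adjusted p in limma or edgeR (0.210% of all genes passed in limma), with none at an unadjusted p under 0.05 (20.5% of all genes).

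The fourth comparison set SnRK1α1-OE against sesquiα2. These values share their sesquiα2 libraries with the comparisons above and are no separate evidence. At ED, 1 member was called, FLZ8 (1.95% of all genes called), which was lower in SnRK1α1-OE, with 971, 815 and 895 in SnRK1α1-OE and 2005, 1797 and 1662 in sesquiα2 (a log2 change of −1.03, SE 0.12, limma adjusted p = 0.00146). FLZ8 fell short of the fold limit, at −0.96 to −0.94, with either other scaling, in the test on recovered reads and without SnRK1α1-OE ED replicate 2 or sesquiα2 ED replicate 1. FLZ5 (−0.95, adjusted p = 0.0112), FLZ6 (−0.51, adjusted p = 0.036) and FLZ3 (−0.50, adjusted p = 0.0364) passed the adjusted p of limma but not the fold limit (6.60% of all genes passed the adjusted p). In each of the 4 genes the SnRK1α1-OE libraries lay below the sesquiα2 libraries without overlap, against 4697 of 19565 genes lower without overlap (35.0% of all genes did not overlap in either direction).

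At EN no member was called in limma or edgeR (1.23% of all genes called by limma), with 4 at an unadjusted p under 0.05 (16.5% of all genes). FLZ8 had a log2 fold change of −0.88 (SE 0.14, limma adjusted p = 0.00857) and was the only member past the adjusted p, as were 2.74% of all genes. FLZ3 had 5012, 3064 and 2994 in SnRK1α1-OE and 6395, 5089.5 and 6855 in sesquiα2, or −0.76 (adjusted p = 0.0891), and without SnRK1α1-OE EN replicate 1, the library that stood apart, it passed the fold limit and was called (limma adjusted p = 4.62e-04), while FLZ6 passed the adjusted p limit alone (−0.48, adjusted p = 0.00566, against −0.41 and 0.0533 with it).

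**Figure D4:**
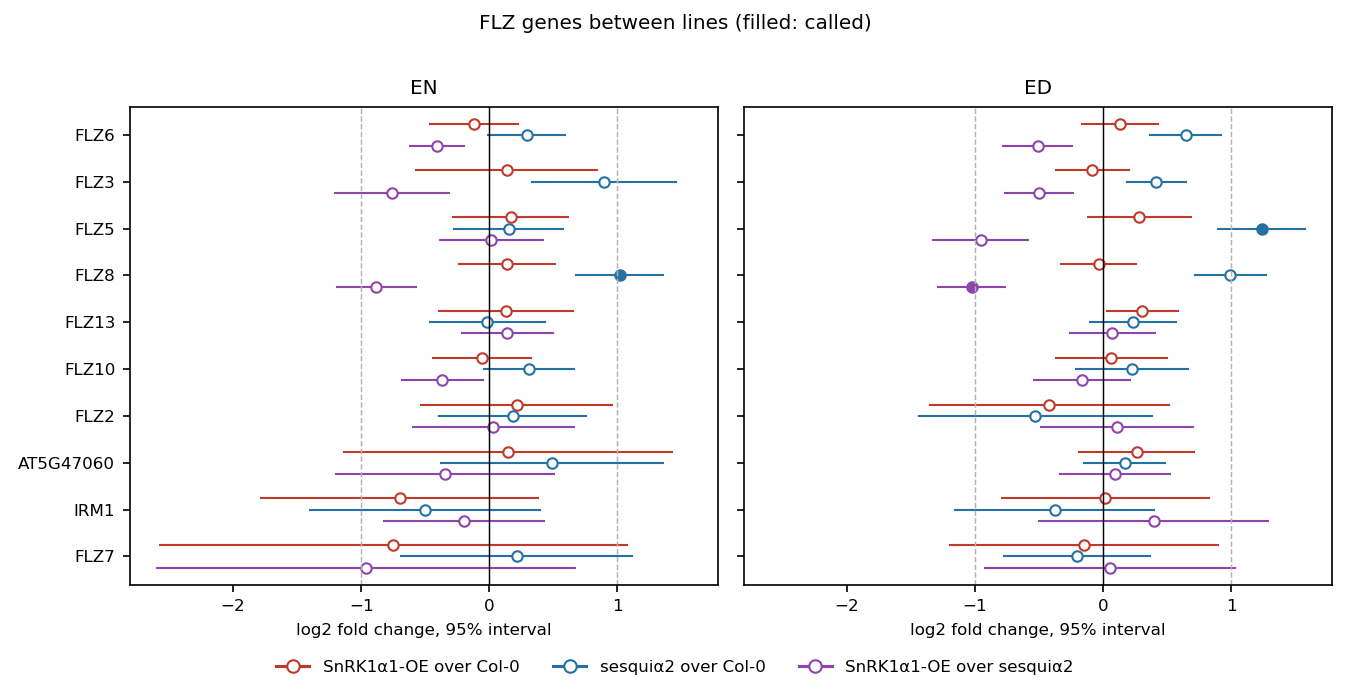
Log2 fold change between lines (x axis, with its 95% interval from limma) for each FLZ gene at EN and ED, as SnRK1α1-OE over Col-0 in red, sesquiα2 over Col-0 in blue and SnRK1α1-OE over sesquiα2 in purple; filled circles were called and dashed lines mark a log2 fold change of −1 and 1. FLZ8 lies near 1 for sesquiα2 over Col-0 at both times (1.02 and 0.99), FLZ5 at ED alone (1.24 at ED, 0.15 at EN), and all intervals of SnRK1α1-OE over Col-0 but that of FLZ13 at ED include 0.

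The order of the group means sums up FLZ8. It was sesquiα2 ED (1821 ± 173), Col-0 ED (917 ± 105), SnRK1α1-OE ED (894 ± 78.1), sesquiα2 EN (477 ± 32.5), SnRK1α1-OE EN (259 ± 26) and Col-0 EN (237 ± 34.5; SD, n = 3 each). Only Col-0 and SnRK1α1-OE at the same time of day overlapped as neighbors in this order.

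Over the 18 libraries the log2 values of FLZ8 and FLZ6 had a Pearson r of 0.97, and those of AT5G47060 and FLZ13 one of 0.94. With the mean of each group taken out, these were 0.75 and 0.82. IRM1 ran against FLZ8 over all libraries (r = −0.76) but with it inside the groups (r = 0.61). The values inside the groups include EN replicate 1 of SnRK1α1-OE and of Col-0, which was highest for all 10 members. Its part in them was not tested. The points share libraries, lines and times of day, so all these values describe the table only.

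Among 20337 other genes, those most like FLZ8 by Pearson r over the 18 libraries were ATHB-6, a homeodomain transcription factor (0.99), RHA2B, a RING-type ubiquitin ligase (0.98), and COR413IM1, a chloroplast membrane protein of the cold response (0.98). The nearest to FLZ6 were SVP, a MADS-box regulator of flowering (0.98), FLZ8 itself (0.97) and AT3G23170 (0.97). For AT5G47060 they were HTR2, NRPB10 and GATA17 (all 0.99), for IRM1 AT5G46840 (0.98), AT1G55880 (0.97) and ARL2 (0.96), and for FLZ7 GSTT1, ASY1 and TOPP4 (all 0.92). FLZ5 had no neighbor as close, with 0.82 for AT5G47050, 0.81 for AT1G05540 and 0.80 for PPA2.

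Of the other genes that the reference tables name as FLZ or MARD1 family, 8 were in the table, and 5 or 6 passed the filter on low values in each comparison. None was called in SnRK1α1-OE or sesquiα2 against Col-0. Between EN and ED, MARD1, named as a mediator of dormancy regulated by abscisic acid, and FLZ14 were called lower at EN in all 3 lines. FLZ14 had 15535, 7653 and 7827 in SnRK1α1-OE at EN, 11142, 10654 and 12169.7 in sesquiα2 at EN and 16555, 7821 and 7748 in Col-0 at EN, with replicate 1 high in the same groups as for the 10 members. AT1G53885, 1 of the 2 rows named FLZ17, was also called lower at EN in SnRK1α1-OE and Col-0, but the 2 rows are near-identical copies whose reads may be split.

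Of the 9 genes for SnRK1 subunits and the kinases that activate it, SnRK1α1 alone was called against Col-0, and only in SnRK1α1-OE (log2 fold change 3.91 at EN and 4.17 at ED). AKINBETA1, a β subunit, was called higher at EN than at ED in all 3 lines. Of 11 low-energy genes that SnRK1 is known to induce, 10 passed the filter in every comparison. None was called in SnRK1α1-OE against Col-0 and none in sesquiα2 at ED. In sesquiα2 at EN, 3 were called lower (0.414% of all genes): BGAL4 (−1.67), DRMH1 (−1.34) and PYL5 (−1.34). The study had reported BGAL4, PYL5 and DIN10 as lower there, from these same libraries and also by RT-qPCR. DIN10 was not called here, with a mean of 6223 in sesquiα2 and 12282 in Col-0 at EN. The 3 calls come from the libraries that the study used and are no separate evidence. At EN, FLZ8 lay above Col-0 in the same sesquiα2 libraries in which the 3 called low-energy genes lay below it. At ED, 4 of the 10 tested low-energy genes were lower in sesquiα2 than in Col-0 without overlap (9.21% of all genes). ATEXPA10 of the same list was higher there without overlap (11.2% of all genes), on the same side as FLZ8.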

How the data were processed

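RNA-seq of 18 rosette libraries was analysed from 1 deposited table. Per the labels and the study's methods, the authors mapped reads to TAIR10 with HISAT2 and normalized the counts with edgeR; the deposited signal values are pseudo-counts multiplied by TMM factors. featureCounts is named without settings. Inverting the calculation gave whole reads, which returned all 590994 deposited values within a relative tolerance of 0.001.

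Log2 of the value plus 1 was fitted with limma 3.58.1 (R 4.3.3; trend and robust settings) on the 6 libraries compared, or 12 for differences between times. Tested genes reached 10 in 3 or more libraries and summed to at least 15, with Benjamini-Hochberg adjustment over all. With 3 against 3, an exact permutation test cannot go below p = 0.1. A test with edgeR 4.0.16 on recovered reads was added after seeing the data. The members and lists were chosen with earlier results of these data known. All members are given in each comparison; values per library are given for members called in any. The fits were tested on simulated data with a common dispersion and no outlying library, so that test does not cover libraries that stand apart.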

Additional observations from a re-analysis of the deposited data

How the results depend on the processing

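The alternatives were a smaller pseudocount and one of 4, no low-value filter, quantile or median-ratio scaling, all 18 libraries in one fit, a non-robust eBayes step, a replicate block, leaving out each library and, added after seeing the data, edgeR on recovered reads. Of 255 refits of the 17 calls of single members, 226 kept the call, 29 lost it and 0 reversed. With a library left out, members called ran from 0 to 2 in sesquiα2 against Col-0 at ED, from 0 to 3 at EN, from 0 to 2 in SnRK1α1-OE against sesquiα2 at ED, from 0 to 1 at EN, and from 0 to 1 for the time dependence of the sesquiα2 effect. Between EN and ED they ran from 3 to 4 in SnRK1α1-OE, from 4 to 7 in sesquiα2 and from 4 to 5 in Col-0. Quantile normalization gave 2 members in sesquiα2 against Col-0 at ED, 0 at EN, 0 in SnRK1α1-OE against sesquiα2 at ED and 1 for the time dependence in sesquiα2. Median-ratio scaling gave 0 in sesquiα2 at EN, 0 in SnRK1α1-OE against sesquiα2 at ED and 1 for that time dependence, as did edgeR on recovered reads (0, 0 and 1), and the fit of all 18 libraries gave 1 for the time dependence. The cause was not tested. These counts of members are not set beside the share of all genes called under the same setting. A shift in them cannot be told from a shift over all genes. With the replicate block, 0 members were called in sesquiα2 against Col-0 at ED, where FLZ5 had an adjusted p of 0.144 from limma, and IRM1 was not called between EN and ED in SnRK1α1-OE (0.0569); the block ended no other call of a member. Same-numbered libraries deviated together over 0.1 in every pair of no comparison, so the numbers are not taken as pairs. Reads limit FLZ7 and IRM1 most.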
